A study of Mus musculus with 18 samples.

Results

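The genes described here are Trp53, which encodes the transcription factor p53, its inhibitors Mdm2 and Mdm4, and 7 genes of the p53 stress response, Plk2, Ccng1, Trp53inp1, Phlda3, Sesn2, Zmat3 and Apaf1. They were taken by gene symbol, and no rule on their values was used, but earlier results of these data were known. They are 10 of the 24421 genes counted. All 10 were among the 12808 genes that passed the filter on low values, which required 1 CPM on average (CPM, counts scaled to library size). RNA had been sequenced from 18 libraries of hematopoietic stem cells (HSCs). The Hoxb5-tri-mCherry mice carry mCherry as a reporter of Hoxb5 on a C57BL/6J background, so that young and aged mice share 1 reporter allele, and no treatment is given in the labels. Young mice were 2 to 3 months and aged mice 23 to 25 months old. Cells were sorted from bone marrow as Hoxb5+ LT-HSCs (long-term HSCs), Hoxb5- ST-HSCs (short-term HSCs) and bulk-HSCs, which are defined by surface markers alone and hold both of the others, and each of the 6 groups has 3 libraries. The labels do not say whether the 3 libraries of a group came from separate animals, so the p-values measure the spread between libraries.

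p53 is a sequence-specific transcription factor that is held at a low level by Mdm2 and Mdm4 and accumulates when DNA is damaged or oncogenes are active. It then induces genes that arrest the cell cycle, repair DNA, alter metabolism or start apoptosis, and it also induces Mdm2, which closes a negative feedback loop. Since p53 is controlled mostly at the level of the protein, the amount of its mRNA is not a measure of its activity. In HSCs p53 is known for its part in quiescence and in the response to radiation.

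Of the 10 genes, Plk2 alone passed the edgeR test for a change with age in a single fraction. Its mean level was 5.78-fold higher in aged than in young ST-HSCs and 5.01-fold higher in aged than in young bulk-HSCs. In LT-HSCs the fold was 2.00 and did not pass the test. Apaf1 rose 1.44-fold when the 3 fractions were averaged. The mRNAs of Trp53, Mdm2, Mdm4 and the remaining 5 targets did not pass the edgeR test in any age comparison. DESeq2, run as an alternative, also called Apaf1 for LT-HSCs and Trp53inp1 for bulk-HSCs and the average. According to the paper, ST-HSCs become fewer relative to LT-HSCs within bulk-HSCs as mice age. The part of such a shift in the changes of bulk-HSCs and of the average was not tested.

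The libraries held between 16495048 and 22973844 counts, so that 3 counts, taken as the smallest amount the depth can show, were 0.132 to 0.176 CPM; this floor covers counting error only. Between 11548 and 13876 genes were detected in young libraries and between 13526 and 14133 in aged libraries. Of 9653 well expressed genes (median of 200 counts or more), 1 to 163 were at 0 counts in a young library and 2 to 6 in an aged library. Replicate 3 of young LT-HSCs and replicate 3 of young ST-HSCs stood apart, with 163 and 160 such genes. Where a member is at 0 in a young library, this dropout cannot be told apart from low expression. The HSC genes Kit and Hlf were abundant, with means of 1375 and 1070 CPM over the 18 libraries. Hoxb5 averaged 19.1 ± 18.4 CPM in young LT-HSCs and 2.08 ± 1.93 CPM in young ST-HSCs, and 22.97 ± 4.04 against 2.21 ± 2.13 CPM in the aged fractions (SD, n = 3). Genes of lymphoid, myeloid and erythroid cells were scarce. The 5 T cell genes summed to 0 to 8.78 CPM, with Cd3e, Cd3g and Cd8a at 0 in all 6 groups and Cd4 and Cd3d not. The sum over 7 neutrophil genes was 0 to 18.2 CPM, over 5 macrophage genes 0 to 41.3 CPM and over 5 B cell genes 10.6 to 29.2 CPM. edgeR called no T cell or macrophage gene with age. DESeq2 called Cd4 in LT-HSCs, Adgre1 in ST-HSCs and bulk-HSCs, and C1qb in bulk-HSCs and the average. The 6 erythroid genes summed to 0 to 21.4 CPM in young and 4.199 to 44.9 CPM in aged libraries. edgeR called Hba-a2 in bulk-HSCs (adjusted p 0.0467) and 1 erythroid gene in the average, both higher in aged mice. DESeq2 called Hba-a2 in ST-HSCs, bulk-HSCs and the average. Hba-a2 was at 0 in every library of young ST-HSCs and of young bulk-HSCs.

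RefSeq promoter windows on GRCm38.p6, from 250 bases before to 50 bases after the start, were found for 8 of the 10 genes, all but Trp53inp1 and Zmat3. They were searched for exact matches to the p53 consensus decamer, of which p53 binds a pair. A decamer was found in the windows of Mdm2, Ccng1 and Trp53, and 9.55% of all 27025 genes with a window held at least 1. The sequences are shown because they are the only places in these windows where every letter of the consensus is met. The decamer is in capitals with 10 bases on each side, written 5′ to 3′ on the strand of the gene.
Mdm2: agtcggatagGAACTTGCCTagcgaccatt
Ccng1: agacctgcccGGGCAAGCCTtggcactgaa
Trp53: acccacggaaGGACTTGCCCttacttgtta
The decamer lies at chr10:117710935-117710944 for Mdm2, at chr11:40755462-40755471 for Ccng1 and at chr11:69580284-69580293 for Trp53. Its first base stands at -186, -185 and -75 from the start in the same order. A pair of exact decamers within 13 bases of each other was in 0 of the 8 windows and in 0.074% of all genes with a window. Pairs with a mismatch were not searched. The 10 bases directly before the Ccng1 decamer come close to the consensus and were not counted, so a paired site there is not excluded. A match is a description of letters and not a binding site, and p53 is known to bind its targets in introns as well.

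Levels were compared between genes per kb of exon in the GENCODE M21 annotation on mm10, with the exons of all annotated transcripts of a gene merged. The order below rests on these lengths, 14798 bases for Mdm4 and 4045 for Trp53. In CPM without length, the median of Mdm4, 225, was above that of Trp53, 146. Trp53 had the highest median level, 36.2 CPM per kb over the 18 libraries, with a range of 30.4 to 48.8, and it was the highest or second highest of the 10 genes in every library. Ccng1 followed with a median of 29.7 CPM per kb and a range that overlapped that of Trp53. Mdm4 at 15.2, Plk2 at 13.6, Mdm2 at 12.4 and Trp53inp1 at 11.6 CPM per kb had overlapping ranges and no stable order. Apaf1 at 6.51 and Sesn2 at 4.56 CPM per kb were lower, and Zmat3 at 1.44 and Phlda3 at 0.875 CPM per kb were lowest. The place of Plk2 in this order ranged from 1 to 10 across libraries. No exon of the 10 genes shares bases with an exon of another annotated gene.

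**Figure D1:**
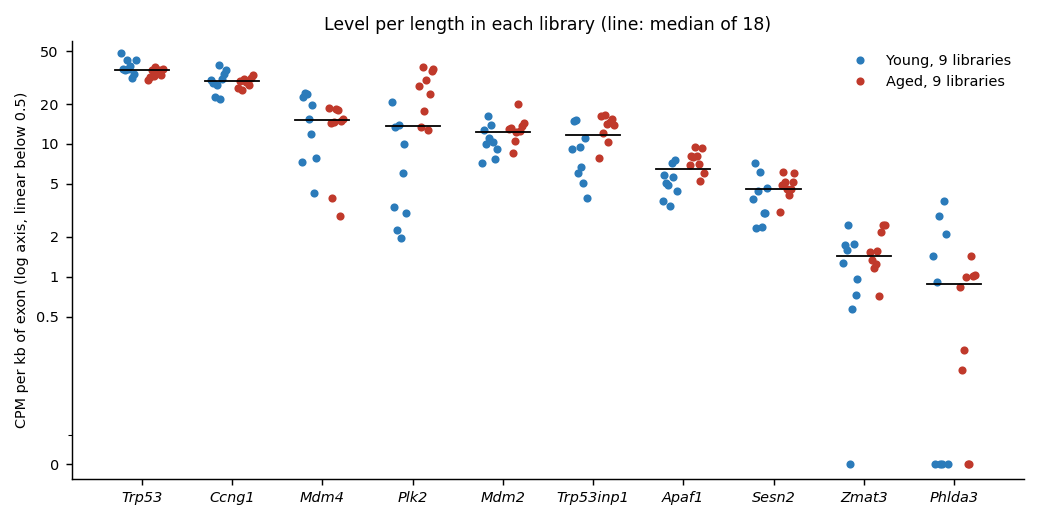
Level of each gene in CPM per kb of exon (y axis, log scale above 0.5) in the 9 young (blue) and 9 aged (red) libraries, with the median of all 18 as a black line and genes in order of that median. Trp53 and Ccng1 lie within narrow bands, while the Plk2 libraries spread from 1.96 to 38.1 CPM per kb.

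Trp53 lies on chromosome 11 (69580359 to 69591873, plus strand). In LT-HSCs its level was 198, 146 and 147 CPM in the young libraries and 123, 146 and 153 CPM in the aged libraries. In ST-HSCs it was 149, 173 and 158 CPM in young and 129, 133 and 141 CPM in aged libraries, so that every aged library lay below every young library. In bulk-HSCs it was 128, 137 and 174 CPM in young and 146, 135 and 148 CPM in aged libraries, which overlapped. With age the log2 fold change was -0.22 ± 0.15 (SE) for LT-HSCs, -0.26 ± 0.15 for ST-HSCs and -0.03 ± 0.15 for bulk-HSCs, and the lowest adjusted p was 0.654. Averaged over the fractions it was -0.17 with a 95% interval from -0.34 to 0.01 and an adjusted p of 0.279. Trp53 also varied least, with 1.61-fold between its lowest and highest library.

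Mdm2, the ubiquitin ligase that marks p53 for degradation, lies on chromosome 10 (117688875 to 117710758, minus strand). In bulk-HSCs its level was 52.5, 39.0 and 46.3 CPM in young and 63.2, 69.4 and 72.6 CPM in aged libraries, without overlap. In ST-HSCs the young libraries were at 65.1, 82.2 and 70.8 CPM and the aged libraries at 67.4, 53.3 and 101 CPM, on both sides of the young. In LT-HSCs they were at 36.7, 51.1 and 55.9 CPM and at 66.4, 43.1 and 62.4 CPM. The log2 fold change in bulk-HSCs was 0.57 ± 0.24 (SE) with an adjusted p of 0.279, against 0.26 ± 0.23 in LT-HSCs and 0.02 ± 0.23 in ST-HSCs. Young ST-HSCs held more Mdm2 mRNA than young LT-HSCs in every library, with a log2 ratio of LT-HSCs to ST-HSCs of -0.60 (adjusted p 0.358).

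Mdm4, which binds and blocks the activation domain of p53, lies on chromosome 1 (132959484 to 133030561, minus strand) and its level ran from 42.3 CPM in an aged bulk-HSC library to 357 CPM in a young LT-HSC library, 8.44-fold apart. In LT-HSCs it was 108, 357 and 229 CPM in young and 275, 58.2 and 270.1 CPM in aged libraries. In ST-HSCs it was 335, 355 and 176 CPM in young and 214, 218 and 266 CPM in aged libraries. In bulk-HSCs it was 289.6, 63.2 and 116 CPM in young and 42.3, 222 and 229.97 CPM in aged libraries. The libraries of aged ST-HSCs lay close together, with a coefficient of variation of 12.6%, while the other 5 groups had one of 34.0% to 75.9%. No log2 fold change of Mdm4 with age passed the test, and the log2 fold change with age averaged over the fractions was -0.15 with an interval from -0.90 to 0.61.

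Plk2, a polo-like kinase that takes part in centriole duplication and in the arrest of stressed cells, lies on chromosome 13 (110395046 to 110400844, plus strand). In ST-HSCs its level was 15.1, 10.2 and 8.80 CPM in the young libraries and 60.1, 79.1 and 57.6 CPM in the aged libraries. In bulk-HSCs it was 27.0, 45.2 and 13.6 CPM in young and 107, 158 and 164 CPM in aged libraries. In LT-HSCs it was 92.4, 60.1 and 62.0 CPM in young and 122, 171 and 135 CPM in aged libraries. Every aged library was above every young library of its fraction. The log2 fold change with age was 2.53 ± 0.35 (SE) in ST-HSCs, with an adjusted p of 0.000852 in the edgeR quasi-likelihood test over all 12808 genes. It was 2.32 ± 0.34 in bulk-HSCs, with an adjusted p of 0.00132. In LT-HSCs it was 0.997 ± 0.33, with a 95% interval from 0.31 to 1.69 and an adjusted p of 0.278.

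The age change of Plk2 was smaller in LT-HSCs than in the other fractions, but the differences did not pass the test over all genes. The LT-HSC change minus the ST-HSC change was -1.53 ± 0.46 on the log2 scale, with an interval from -2.51 to -0.55, an unadjusted p of 0.00408 and an adjusted p of 0.872. The LT-HSC change minus the bulk-HSC change was -1.33 ± 0.46, with an unadjusted p of 0.0101 and an adjusted p of 0.698. The changes in ST-HSCs and bulk-HSCs differed by 0.21 ± 0.46. These differences share libraries with each other and with the comparisons they are built from.

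Plk2 also separated LT-HSCs from ST-HSCs in young mice. Young LT-HSCs held 71.5 ± 18.1 CPM (SD, n = 3) and young ST-HSCs 11.3 ± 3.30 CPM, a log2 fold change of 2.66 ± 0.35 (SE) with an adjusted p of 0.00102. Young bulk-HSCs lay between them at 28.6 ± 15.8 CPM, with a log2 ratio of LT-HSCs to bulk-HSCs of 1.32 (adjusted p 0.112) and of ST-HSCs to bulk-HSCs of -1.33 (adjusted p 0.162). In aged mice LT-HSCs held 143 ± 25.4 CPM, ST-HSCs 65.6 ± 11.8 CPM and bulk-HSCs 143 ± 31.3 CPM. The aged LT-HSC libraries were all above the aged ST-HSC libraries, with a log2 fold change of 1.12 ± 0.33 and an adjusted p of 0.661. Aged LT-HSCs and aged bulk-HSCs differed by -0.0047 ± 0.32, with an interval from -0.69 to 0.68. In sorted populations, a smaller share of cells with a transcript and less of it per cell cannot be told apart. The aged bulk-HSC libraries, at 107, 158 and 164 CPM, were all above the young LT-HSC libraries, at 92.4, 60.1 and 62.0 CPM. The paper reports a smaller share of ST-HSCs in aged bulk-HSCs, and its part in the bulk-HSC change was not tested.

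**Figure D2:**
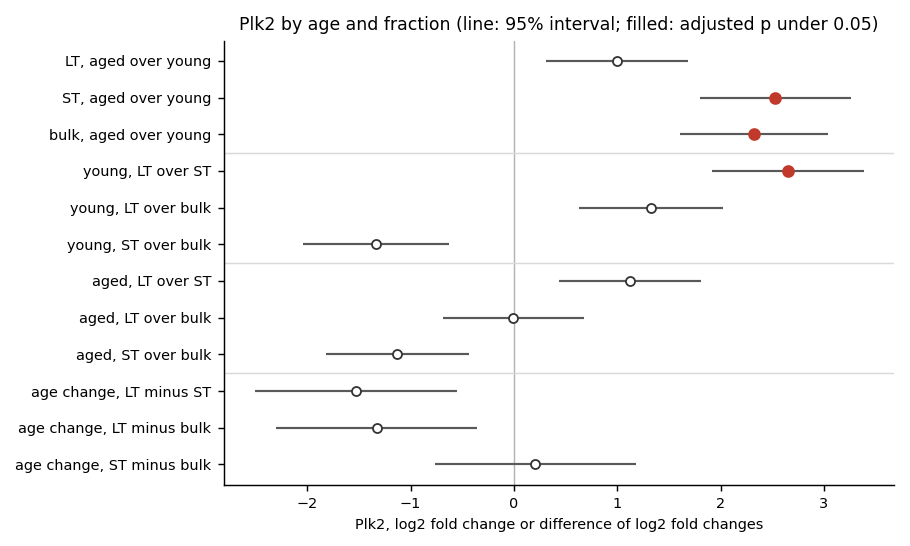
Plk2 log2 fold changes (x axis) with their 95% intervals for the age change within each fraction, the fractions of each age and the differences between age changes, with filled points for an adjusted p under 0.05. The filled points are the age changes of 2.53 in ST-HSCs and 2.32 in bulk-HSCs and the difference of 2.66 between young LT-HSCs and ST-HSCs.

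The number of detected genes, an HSC marker and the sum of megakaryocyte genes also differed between young and aged libraries. With the detected genes per library as a covariate, the Plk2 change was 2.32 for ST-HSCs (adjusted p 0.0113). For bulk-HSCs it was 2.01 under the same covariate (adjusted p 0.0415). Without replicate 3 of young LT-HSCs and of young ST-HSCs, an alternative chosen after the data were seen, it was 2.39 (adjusted p 0.00795) in ST-HSCs. Slamf1, which encodes the HSC surface marker CD150, rose by 0.99 on the log2 scale in aged ST-HSCs (adjusted p 0.0446). In aged bulk-HSCs Slamf1 rose by 0.96 (adjusted p 0.0313). These calls held under 5 and 7 of 15 alternatives. Of 9 HSC marker genes edgeR called Slamf1 higher in ST-HSCs and bulk-HSCs, 0 in LT-HSCs (1 at an unadjusted p under 0.05) and 2 in the average, Slamf1 (0.68) and Procr (0.40), which encodes the surface marker EPCR. DESeq2 called 0 for LT-HSCs, Slamf1 and Procr for ST-HSCs, Slamf1 for bulk-HSCs, and Slamf1, Procr and Hlf for the average. The summed level of the 9 genes was 3574 to 4470 CPM in young and 3499 to 3762 CPM in aged ST-HSC libraries. The 5 megakaryocyte genes Pf4, Ppbp, Gp9, Gp5 and Itga2b summed to 88.0 to 116 CPM in young ST-HSC libraries and to 157 to 186 CPM in aged ones, with 0 of 5 called by edgeR in any age comparison (1, 1, 0 and 2 at an unadjusted p under 0.05 for LT-HSCs, ST-HSCs, bulk-HSCs and the average), while DESeq2 called Ppbp for LT-HSCs and Ppbp and Itga2b for the average. Over all 12808 genes 1129, 1238, 1698 and 2519 had an unadjusted p under 0.05, in the same order. In LT-HSCs the megakaryocyte sums were 75.0 to 110.2 and 110.4 to 178 CPM, and in bulk-HSCs 96.0 to 169 and 151 to 159 CPM. Their part in the Plk2 result was not tested.

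The sequence before the Plk2 start is shown because Plk2 was the member called within fractions, while its window held no exact p53 decamer. It covers 250 bases, chr13:110394794-110395043 on the plus strand of GRCm38.p6, with 68.4% G and C.
Plk2: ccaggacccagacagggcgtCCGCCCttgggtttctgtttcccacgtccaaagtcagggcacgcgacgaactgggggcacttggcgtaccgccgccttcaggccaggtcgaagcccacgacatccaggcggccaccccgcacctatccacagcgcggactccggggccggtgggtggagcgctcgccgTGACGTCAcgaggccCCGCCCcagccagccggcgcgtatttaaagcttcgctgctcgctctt
Capitals mark the GC box (GGGCGG, at -230 and -47, both on the minus strand) and the cAMP response element (TGACGTCA, at -62). Both strands were searched, and the motifs do not overlap. Of all 27025 genes with a window, 35.4% held a GC box and 1.77% a cAMP response element in at least 1 upstream window. The exact letters of the TATA box (TATAAA) and the CCAAT box (CCAAT) were not in this window, while 14.3% and 37.5% of these genes held them in at least 1 window. Variants were not searched, such as the stretch tatttaaa near the end of the window, so a TATA-like element is not excluded.

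The 3 tested genes whose levels were most like those of Plk2 across the 18 libraries were Chrm3, Clca3a1 and Cldn5, with Pearson r of log2(CPM + 1) of 0.957, 0.932 and 0.927. These are descriptions, since libraries of one group share age and fraction. Clca3a1 averaged 104 ± 43.5 CPM in young and 277 ± 10.8 CPM in aged LT-HSCs, and 16.9 ± 5.90 against 185 ± 2.88 CPM in ST-HSCs. Chrm3, a muscarinic acetylcholine receptor, went from 0.211 ± 0.366 to 25.4 ± 3.16 CPM in ST-HSCs, and Cldn5, a tight junction protein, from 1.22 ± 1.49 to 15.4 ± 3.20 CPM. For all 3 genes, as for Plk2, young LT-HSCs held the highest mean of the young fractions and young ST-HSCs the lowest. The genes most like Trp53 were Mbp, Cep170 and Map3k4 (r of 0.797, 0.778 and 0.732), and those most like Apaf1 were Btg1, Crlf2 and Clcn7 (r of 0.870, 0.846 and 0.821).

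Ccng1 encodes cyclin G1, a target of p53 that recruits a protein phosphatase to Mdm2, and lies on chromosome 11 (40748552 to 40755311, minus strand). In LT-HSCs its level was 107, 78.8 and 137 CPM in young and 92.7, 88.9 and 103 CPM in aged libraries. In ST-HSCs it was 101, 98.4 and 76.5 CPM in young and 104, 109 and 105 CPM in aged libraries, the aged all above the young by a narrow margin. Bulk-HSCs held 109, 118 and 126 CPM in young and 98.5, 111 and 116 CPM in aged libraries. The log2 fold change averaged over the fractions was -0.03, with an interval from -0.24 to 0.18, narrower than that of every other member but Trp53.

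Trp53inp1, a nuclear stress protein that cooperates with p53 and takes part in autophagy, lies on chromosome 4 (11156431 to 11174379, plus strand). In bulk-HSCs its level was 32.7, 71.7 and 25.6 CPM in young and 94.9, 100.3 and 89.4 CPM in aged libraries, without overlap. In ST-HSCs it was 96.3, 39.4 and 43.5 CPM in young and 105, 107 and 66.9 CPM in aged libraries, and in LT-HSCs 59.4, 98.4 and 61.5 against 51.1, 79.0 and 92.1 CPM. In each fraction of young mice a lone library was well above the other 2. The log2 fold change was 1.13 ± 0.38 (SE) in bulk-HSCs, with an adjusted p of 0.156, and 0.59 ± 0.22 averaged over the fractions, with an adjusted p of 0.121. It passed in bulk-HSCs without replicate 2 of young bulk-HSCs (1.704, adjusted p 0.0294) and in DESeq2 (1.12, adjusted p 0.0240), 2 of 15 alternatives. In the average it passed under 3 of 26 alternatives, which were DESeq2 (adjusted p 0.0330), the fit without replicate 1 of young ST-HSCs (adjusted p 0.0286) and the fit without replicate 2 of young bulk-HSCs (adjusted p 0.0199).

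Apaf1, the scaffold of the apoptosome that activates caspases after cytochrome c release, lies on chromosome 10 (90989311 to 91082770, minus strand). In LT-HSCs its level was 33.5, 46.1 and 30.7 CPM in young and 63.1, 71.5 and 72.9 CPM in aged libraries, without overlap. In ST-HSCs it was 53.03, 44.0 and 65.4 CPM in young and 73.0, 85.1 and 63.4 CPM in aged libraries, and in bulk-HSCs 51.3, 68.6 and 40.2 against 47.8, 84.0 and 54.4 CPM. Averaged over the fractions Apaf1 rose by 0.53 ± 0.14 (SE) on the log2 scale, with an adjusted p of 0.0319. With the detected genes per library as a covariate the Apaf1 change was 0.45 and the adjusted p 0.4997, and the call was also lost when any of 11 of the 18 libraries was left out, with adjusted p of up to 0.0761. It held without replicate 2 of young LT-HSCs, 3 of young ST-HSCs, 2 of young bulk-HSCs, 1 of aged LT-HSCs, 3 of aged ST-HSCs and 1 or 3 of aged bulk-HSCs. By fraction the Apaf1 change was 0.91 ± 0.25 for LT-HSCs (adjusted p 0.150), 0.45 ± 0.25 for ST-HSCs (adjusted p 0.629) and 0.22 ± 0.25 for bulk-HSCs (adjusted p 0.848). The differences between these changes did not pass the test, with an unadjusted p of 0.0619 for LT-HSCs against bulk-HSCs.

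Sesn2, a sestrin that signals a lack of leucine to the mTOR pathway, lies on chromosome 4 (132492032 to 132510501, minus strand). Its level was 13.4, 8.03 and 21.5 CPM in young and 10.7, 21.4 and 15.9 CPM in aged LT-HSCs. It was 24.9, 15.4 and 8.17 CPM in young and 17.2, 17.8 and 14.4 CPM in aged ST-HSCs, and 10.6, 10.5 and 16.2 against 15.8, 17.8 and 21.0 CPM in bulk-HSCs. The young and aged libraries overlapped in each fraction, and the averaged log2 fold change was 0.25 with an interval from -0.30 to 0.79.

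Zmat3, a zinc finger protein that binds RNA, lies on chromosome 3 (32334792 to 32366014, minus strand). It was at 14.5, 18.2 and 0 CPM in young and 17.6, 13.3 and 17.9 CPM in aged LT-HSCs, and the 0 stood in replicate 3, where many well expressed genes were at 0. It was at 19.7, 27.9 and 6.47 CPM in young and 15.2, 14.3 and 8.19 CPM in aged ST-HSCs. Bulk-HSCs held 20.1, 8.26 and 10.98 CPM in young and 24.7, 28.0 and 27.8 CPM in aged libraries, without overlap, for a log2 fold change of 1.03 ± 0.93 and an adjusted p of 0.773.

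Phlda3, which represses Akt by competing for membrane lipids, lies on chromosome 1 (135766119 to 135769136, plus strand) and had the lowest median level of the 10. It was at 2.23, 1.42 and 0 CPM in young and 1.31, 0.604 and 0 CPM in aged LT-HSCs, and at 0, 4.49 and 0 CPM in young and 0.497, 1.55 and 0 CPM in aged ST-HSCs. It was at 0 in 6 of 18 libraries, 4 young and 2 aged, and its highest level was 5.82 CPM in a young bulk-HSC library. The 3 aged bulk-HSC libraries, at 2.25, 1.57 and 1.61 CPM, were the only group without a 0. The interval of its averaged log2 fold change ran from -3.86 to 1.99, and libraries of the same group ranged from 0 to 5.82 CPM in young bulk-HSCs.

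**Figure D3:**
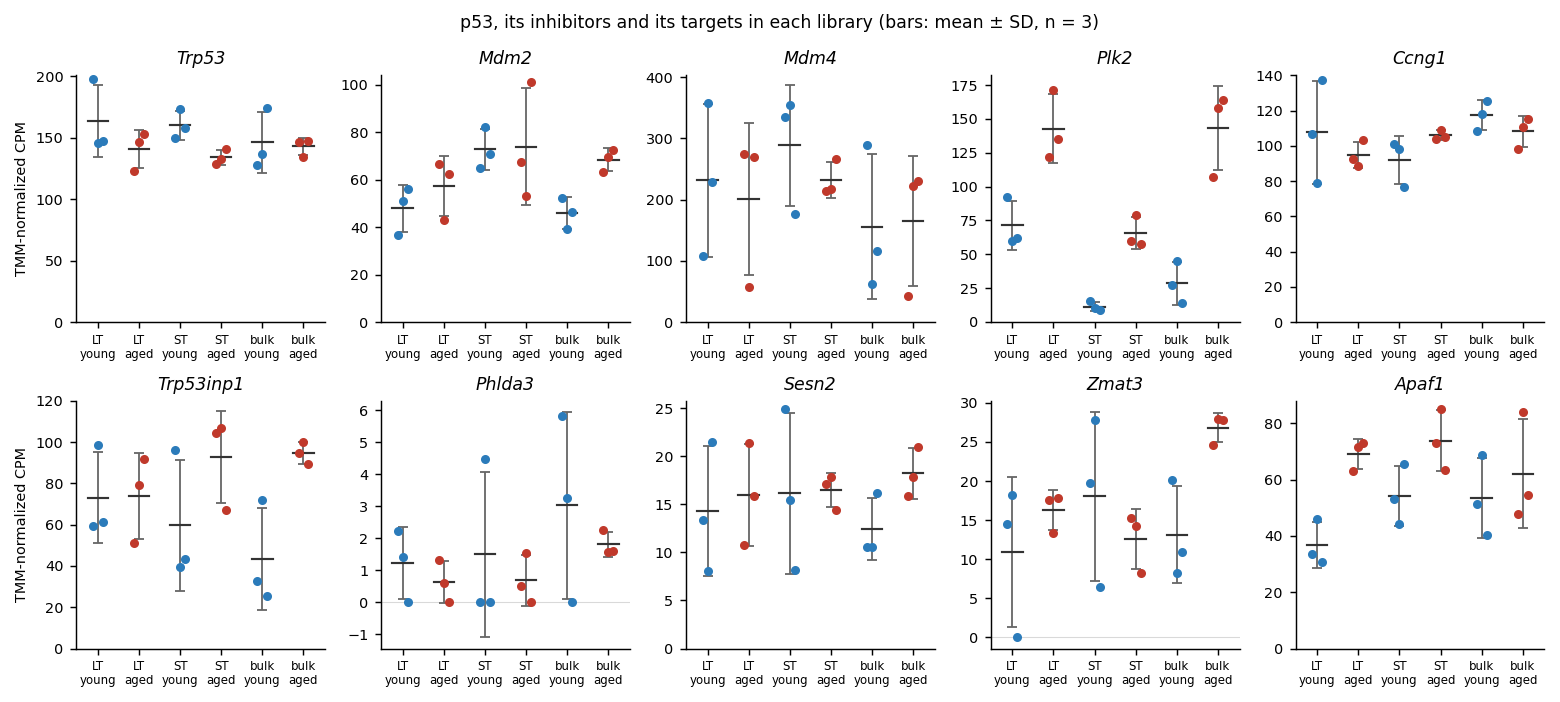
TMM-normalized CPM (y axis, a separate scale for each gene) in every library of the 6 groups, blue for young and red for aged, with the mean and SD of 3 libraries. Plk2 is higher in aged than in young libraries of each fraction, while the Mdm4 libraries spread from 63.2 to 357 CPM in young and from 42.3 to 275 CPM in aged mice.

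Over the 10 genes, 0 were called in LT-HSCs, where 0.445% of all genes tested were called, 1 in ST-HSCs against 0.851%, 1 in bulk-HSCs against 1.98% and 2 in the average against 6.75%, all of them higher in aged mice. At an unadjusted p under 0.05 the number in LT-HSCs was 2, Plk2 and Apaf1, against 1129 of all 12808 genes. DESeq2 called 1, Apaf1, against 290 of all genes. Aged libraries lay wholly above or wholly below young ones for 2 members in LT-HSCs, against 16.1% of all tested genes. The number was 3 for ST-HSCs against 17.8%, and 4 for bulk-HSCs against 22.7%. The median log2 fold change of the 10 genes was 0.09 for LT-HSCs, 0.03 for ST-HSCs, 0.38 for bulk-HSCs and 0.27 for the average, and the medians of all tested genes lay between 0.02 and 0.04.

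Between fractions of young mice, 1 of the 10 genes, Plk2, was called for LT-HSCs against ST-HSCs, where 0.429% of all genes were called. None was called by edgeR for LT-HSCs against bulk-HSCs (0.273% of all genes) or for ST-HSCs against bulk-HSCs (0.164%). In these comparisons edgeR gave 2 and 2 of the 10 an unadjusted p under 0.05, against 1477 and 1234 of all 12808 genes. DESeq2 called Plk2 in both, against 438 and 308 of all genes. In aged mice 0 of the 10 were called by edgeR or DESeq2. edgeR called 0.00781% of all genes for LT-HSCs over ST-HSCs and 0% for the other pairs. At an unadjusted p under 0.05 stood 1, 0 and 1 of the 10, against 437, 421 and 346 of all 12808 genes. The difference between age changes was called by either tool for 0 of the 10. edgeR called 0%, 0.00781% and 0.0625% of all genes for LT-HSCs minus ST-HSCs, LT-HSCs minus bulk-HSCs and ST-HSCs minus bulk-HSCs. In the same order 1, 1 and 0 of the 10 had an unadjusted p under 0.05, against 502, 746 and 740 of all 12808 genes.

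**Figure D4:**
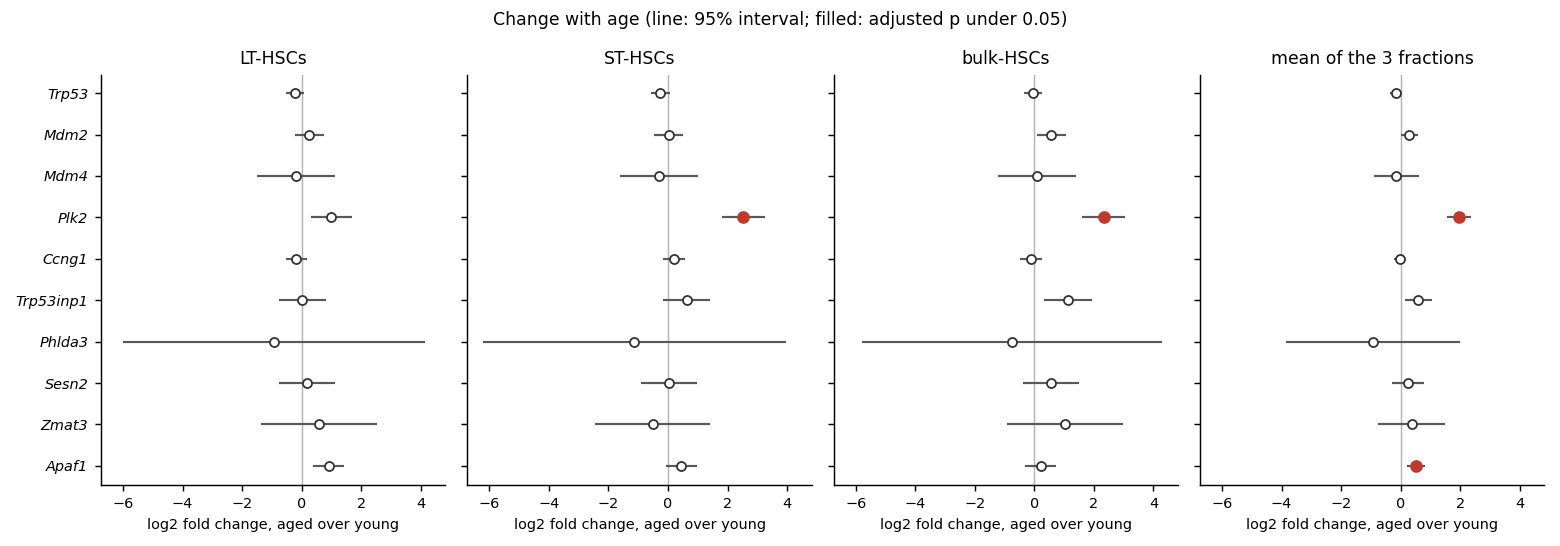
Log2 fold change of aged over young (x axis) for the 10 genes in each fraction and averaged over the fractions, with 95% intervals and filled points for an adjusted p under 0.05. The filled points are Plk2 in ST-HSCs, bulk-HSCs and the average and Apaf1 in the average, and the intervals of Phlda3 are the widest.

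Of 59 other known p53 targets, 54 were tested. edgeR called 0 in a single fraction, with 2, 2 and 3 at an unadjusted p under 0.05 for LT-HSCs, ST-HSCs and bulk-HSCs, where DESeq2 called 0, 1 and 3. Over all 12808 genes these numbers were 1129, 1238 and 1698 at an unadjusted p under 0.05 and 290, 448 and 741 in DESeq2. In the average edgeR called 1, Cdkn1a, and DESeq2 4, and 31 of 54 had a positive and 23 a negative log2 fold change. Of all tested genes edgeR called 6.75% and DESeq2 1494 in the average, and 54.7% had a positive log2 fold change. Cdkn1a, the cyclin-dependent kinase inhibitor p21, was at 0 in all 3 young bulk-HSC libraries, replicate 1 of young LT-HSCs and replicate 3 of young ST-HSCs, and at 0.331 to 7.15 CPM in the other 4 young libraries. In the 9 aged libraries it was at 3.503 to 7.47 CPM, with an adjusted p of 0.0321 in the average. It kept this call under 14 of 25 alternatives and had an adjusted p of 0.579 with the detected genes per library as a covariate. The zeros lie in young libraries, where dropout of well expressed genes was more frequent, and the part of dropout in this call was not tested. Tap1, a peptide transporter of antigen presentation, changed by 0.37 ± 0.11 (adjusted p 0.0551) and Fbxw7, a ubiquitin ligase subunit, by 0.51 ± 0.18 (adjusted p 0.116) in the average.

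Of 24 genes that act on p53, 23 were tested. Huwe1, a ubiquitin ligase for p53 and other proteins, fell from 1002 ± 30.3 CPM in young ST-HSCs to 795 ± 31.2 CPM in aged ST-HSCs, a log2 fold change of -0.33 (adjusted p 0.0425), and the other 22 did not pass. The Huwe1 call held under 4 of 15 alternatives, with adjusted p of up to 0.206. In ST-HSCs 17 of 23 had a negative log2 fold change and the median was -0.20. For all tested genes the median was 0.02 and 52.4% were positive. edgeR called 0 of 23 for LT-HSCs, bulk-HSCs and the average, with 0, 2 and 4 at an unadjusted p under 0.05, where DESeq2 called 0, 0 and 3. Over all 12808 genes these numbers were 1129, 1698 and 2519 at an unadjusted p under 0.05 and 290, 741 and 1494 in DESeq2. The deacetylase Sirt1 changed by 0.59 ± 0.19 in the average (adjusted p 0.0778), and the acetyltransferase Ep300 by -0.23 ± 0.09 (adjusted p 0.135). Cdkn2a, whose product Arf inhibits Mdm2, was at 0 counts in every library.

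**Figure D5:**
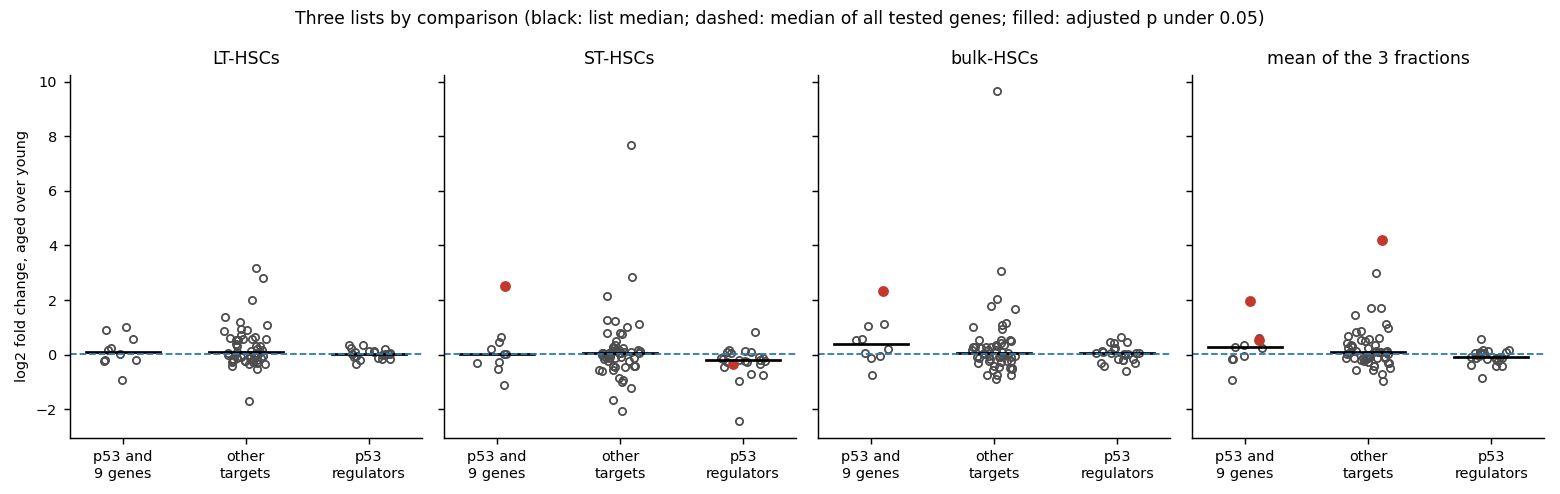
Log2 fold change of aged over young (y axis) for the tested genes among p53 and its 9 partners, the other p53 targets and the p53 regulators, with list medians as black lines and the median of all tested genes dashed. The highest open points in ST-HSCs and bulk-HSCs are Fas, named after its value was seen, and Cdkn1a, which were at 0 counts in every young library of that fraction, so their fitted values are not fold changes.

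The relatives of these genes were described in the same way. Of 12 paralogs 9 were tested and 0 were called by edgeR or DESeq2 in any age comparison, with 0 at an unadjusted p under 0.05. The p53 family members Trp63 and Trp73 were at 0 in every library. The other polo-like kinases were low, with means of 5.25 CPM for Plk1, 3.03 CPM for Plk3 and 13.8 CPM for Plk4 over the 18 libraries. Ccng2 changed by -0.28 ± 0.16, Sesn1 by 0.08 ± 0.12 and Sesn3 by -0.09 ± 0.10 on the log2 scale in the average.

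Genes of other stress responses were counted beside these. Of 14 tested immediate early genes, which respond to signals and to cell isolation within minutes, edgeR called 0 in a single fraction (3, 5 and 2 had an unadjusted p under 0.05, and DESeq2 called 1, 3 and 2). Over all 12808 genes 1129, 1238 and 1698 had an unadjusted p under 0.05, and DESeq2 called 290, 448 and 741. In the average, where edgeR called 6.75% of all genes, Junb rose by 0.92 ± 0.19 and Egr1 by 1.28 ± 0.28, while Fosb fell by 1.299 and Dusp1 by 0.67. With the detected genes per library as a covariate none of these 4 calls remained, and the highest adjusted p was 0.783. The summed level of the 15 listed genes was 623 to 978 CPM in young libraries. In aged libraries it was 644 to 1026 CPM apart from replicate 2 of aged bulk-HSCs, which stood at 1889.6 CPM. Of 11 tested targets of Atf4, the transcription factor of the integrated stress response, edgeR called Vldlr and Nupr1 higher in ST-HSCs, bulk-HSCs and the average (0.851%, 1.98% and 6.75% of all genes). In LT-HSCs edgeR called 0, with 2 at an unadjusted p under 0.05, while DESeq2 called Vldlr and Nupr1. In LT-HSC libraries Vldlr was at 24.6 to 54.5 CPM in young and 103 to 172 CPM in aged mice, and Nupr1 at 17.1 to 40.5 and 69.1 to 94.5 CPM. DESeq2 called 2, 4 and 4 of the 11 in ST-HSCs, bulk-HSCs and the average, against 448, 741 and 1494 of all genes. Nupr1 went from 14.6 ± 3.35 to 52.9 ± 16.7 CPM in ST-HSCs (adjusted p 0.0223, a call kept under 9 of 15 alternatives) and Vldlr from 11.5 ± 5.72 to 146 ± 27.0 CPM in bulk-HSCs (adjusted p 0.000368).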

How the data were processed

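RNA from 18 libraries of sorted mouse HSCs was sequenced as ribosomal RNA-depleted libraries. HISAT2 (alignment to mm10), SAMtools 1.7, StringTie 1.3.4d (quantification) and edgeR were used by the authors, as their methods and processing notes state. The deposited values are read counts per gene symbol, whole numbers without normalization. How counts were derived from the StringTie output, the annotation and the use of strand are not given in the sources used here. All 18 columns were assigned from the sample labels.

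Counts were analysed with edgeR 4.0.16 in R 4.3.3. The 12808 genes whose TMM-normalized CPM averaged 1 or more entered 1 quasi-likelihood model of the 6 group means, and 13 contrasts were tested with Benjamini-Hochberg adjustment over all genes at a threshold of 0.05. The standard error is the size of the log2 fold change over the square root of F. DESeq2 1.42.0, other scalings, filters, covariates and left-out libraries were alternatives, and the test was checked on simulated data. The members and lists were chosen with earlier results of these data known. All members, the called genes and the 3 with the smallest averaged p of the target and regulator lists, tested paralogs, abundant or called marker and stress genes, and the 3 genes most like Trp53, Plk2 and Apaf1 were named. 2 list symbols were matched through RefSeq synonyms. Same-numbered libraries of different groups had deviations with correlations of at most 0.124. The labels do not tie numbers to animals, so numbers were not treated as pairs, although LT-HSC and ST-HSC libraries of an age were most alike by number. Figures were drawn in Python 3.11.15 with matplotlib 3.10.9.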

Additional observations from a re-analysis of the deposited data

How the results depend on the processing

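Plk2 was called with age in ST-HSCs and bulk-HSCs under all 15 alternatives each, in the average under all 26, and between young LT-HSCs and ST-HSCs under all 15. No called member changed direction. DESeq2 called 1 of the 10 members for age in LT-HSCs (Apaf1), 2 in bulk-HSCs (Plk2 and Trp53inp1), and 1 (Plk2) for young LT-HSCs against bulk-HSCs and for young ST-HSCs against bulk-HSCs, and the detected genes per library, as a covariate, left 1 (Plk2) in the average. With 1 library left out, the members called were 1 to 2 for age in bulk-HSCs, 1 to 3 in the average, and 0 to 1 for young LT-HSCs and for young ST-HSCs against bulk-HSCs. Leaving out replicate 2 of young bulk-HSCs added Plk2 against LT-HSCs and Trp53inp1 with age, and leaving out replicate 3 added Plk2 against ST-HSCs. The cause was not tested.

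Uncalled members that changed sign did so close to 0 or with wide intervals, in log2 fold change with age. Library size alone gave Trp53inp1 -0.024 in LT-HSCs. The detected-gene covariate gave Trp53inp1 -0.40 and Zmat3 -0.37 in LT-HSCs, Mdm4 -0.47, Ccng1 0.054 and Zmat3 -0.94 in bulk-HSCs, and Ccng1 0.11 and Zmat3 -0.97 in the average. Without both young libraries that had the most well expressed genes at 0, Ccng1 was at 0.020, Trp53inp1 at -0.10 and Zmat3 at -0.014 in LT-HSCs, Sesn2 at -0.28 in ST-HSCs and Ccng1 at 0.000688 in the average. Leaving out 1 library gave ranges in LT-HSCs of -0.54 to 0.24 for Mdm4, -0.38 to 0.031 for Ccng1, -0.17 to 0.28 for Trp53inp1, -0.14 to 0.58 for Sesn2 and -0.0039 to 1.15 for Zmat3. The ranges in ST-HSCs were -0.27 to 0.21 for Mdm2, -2.56 to 6.78 for Phlda3 and -0.29 to 0.48 for Sesn2. Those in bulk-HSCs were -0.12 to 0.11 for Trp53, -0.30 to 0.89 for Mdm4, -1.33 to 0.15 for Phlda3 and -0.062 to 0.44 for Apaf1, and those in the average -0.27 to 0.12 for Mdm4, -0.091 to 0.040 for Ccng1 and -1.41 to 1.703 for Phlda3.

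The replicate block, for numbers that the labels do not tie to shared animals, gave 0, 1, 1 and 2 members with age in LT-HSCs, ST-HSCs, bulk-HSCs and the average and 1 for young LT-HSCs against ST-HSCs, as without it. Under the replicate block Mdm2 was at -0.012 in ST-HSCs and Phlda3 at 3.22 in bulk-HSCs and 0.51 in the average. Correlations of same-numbered libraries ran up to 0.124. Between LT-HSCs and ST-HSCs of an age, each same-numbered pair was more alike than the other-numbered ones. In young mice these were 0.0175, 0.124 and 0.0932, against at most -0.0043, 0.028 and -0.036. In other pairs of groups not every library was most like its own number. The block joined numbers across ages, and a pairing within an age was not fitted.

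Over all genes the age calls for LT-HSCs (57) ran from 9 with only those groups fitted to 290 with DESeq2, for ST-HSCs (109) from 26 to 448, for bulk-HSCs (253) from 82 with the detected-gene covariate to 741, and for the average (864) from 153 to 1494. For young LT-HSCs against ST-HSCs (55) they ran from 5 to 387. Scaling by library size alone gave 33 higher and 23 lower for LT-HSCs against 39 and 18 with TMM, and 160 higher and 80 lower for bulk-HSCs against 196 and 57. The filter of 10 counts in every library removed Phlda3, Zmat3 and Cdkn1a from the test. The average uses all 6 groups, so it has no separate fit with only the groups compared.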
